A study of Homo sapiens with 6 samples.

Results

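Squamous epithelium is built and kept by a small group of transcription factors, and 9 of their genes (TP63, SOX2, KLF4, KLF5, GRHL2, GRHL3, OVOL1, ZNF750 and PITX1) are described here in SCC-9 cells. They were chosen by name, as the rows of the count table that carry these symbols, and all 9 were found among its 25349 genes. SCC-9 is an established human cell line from a squamous cell carcinoma of the tongue. The cells received 10 nM of a nonspecific siRNA (siNC, libraries NS in the labels) or of an siRNA that targets exon 7 of MKI67, the gene of Ki67 (siE7, libraries siKi), carried by Lipofectamine 3000 on day 0 and repeated on day 2. RNA dates from day 4, and which of the exon 7 siRNAs listed in the methods was used is not stated. The comparison asks which genes respond when the exon 7-containing form of Ki67 is depleted. Each group held 3 libraries of this 1 cell line, and the medium of both groups contained 10% serum and 400 ng/mL hydrocortisone. No label ties the libraries to separate cultures, so p-values measure the spread between these libraries, which may be technical.

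As background, p63 (TP63) is the master regulator of basal keratinocytes, and SOX2 is its partner in many squamous tumors. KLF4 and KLF5 are zinc finger factors that bind GC-rich and CACCC sequences, KLF4 being known for barrier formation and KLF5 for the proliferating basal layer. GRHL2 and GRHL3 are grainyhead factors that control epithelial junctions and the epidermal barrier. OVOL1 and ZNF750 promote terminal differentiation, ZNF750 as a direct target of p63, and PITX1 is a homeodomain factor of the oral epithelium and the hindlimb.

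The 6 libraries held 25608192 to 29550264 counts on genes. MKI67 reached 1072, 1029 and 1077 CPM (each gene's count scaled to the library's total, TMM-adjusted, on the counts-per-million scale) in siNC replicates 1 to 3, and 112, 124 and 108 CPM in siE7 replicates 1 to 3. MKI67 thus changed by a log2 fold of -3.21 with a standard error of 0.114 (adjusted p = 6.7e-08, where all adjusted p-values follow Benjamini-Hochberg and, unless another tool is named, come from the quasi-likelihood F-test of edgeR, called the edgeR QL test), and the targeted gene was low in each library labelled as treated. The siE7 replicate 1 stood apart from the other siE7 libraries, with a chi-square of the counts per degree of freedom of 61.1 and 72.7 against 6.22 between replicates 2 and 3. Results are therefore also given without it. In that fit the adjusted p of MKI67 was smaller, at 6.7e-31 by the edgeR QL test. The share of all tested genes called in that fit is not given, so its counts of calls have no background beside them. The squamous markers were abundant in both groups, the summed level of 9 markers lying between 16761 and 17549 CPM with siNC and between 17115 and 22636 CPM with siE7. Of these markers KRT17 rose, TP63, KRT5, CDH1 and EPCAM fell, and 4 did not pass the test. Markers of other cell types were low, with sums of 16.4 to 24.1 CPM for 6 fibroblast markers, 0.0725 to 0.492 for 4 endothelial, 1.49 to 3.84 for 2 immune and 0.0757 to 0.327 for 2 melanocyte markers over all libraries. COL1A1 made up most of the fibroblast sum (15.3 ± 1.69 CPM with siNC and 18.3 ± 3.21 CPM with siE7, SD, n = 3 each), while LUM and COL3A1 were at or near 0. DCN, below the filter on low counts, had 0, 1 and 2 counts with siNC and 8, 11 and 19 with siE7, the 1 fibroblast marker whose groups did not overlap, and the part of these cells in any result was not tested. In bulk RNA, fewer cells that express a gene and less RNA per cell cannot be told apart.

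Of the 9 members, 8 had enough reads to be tested and SOX2 did not. An adjusted p-value under 0.05 was found for 4 of the 8, against 34.0% of all 14661 tested genes. Of all these calls 52.9% were higher, or 71.2% without composition scaling, that is with library totals in place of TMM. KLF4 was the 1 member that rose, where 18.0% of all tested genes did. TP63, GRHL3 and PITX1 fell, where 16.0% of all tested genes did. When a log2 fold change larger than 1 in size was required too, KLF4 was the member called, and 12.2% of all tested genes met this. The libraries of the groups did not overlap for the same 4 members, 1 above and 3 below, while 47.6% of all tested genes did not overlap. With 8 members tested, these counts are not set apart from the background. Over the 8 tested members the median log2 fold change was -0.18, beside 0.08 over all tested genes.

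**Figure D1:**
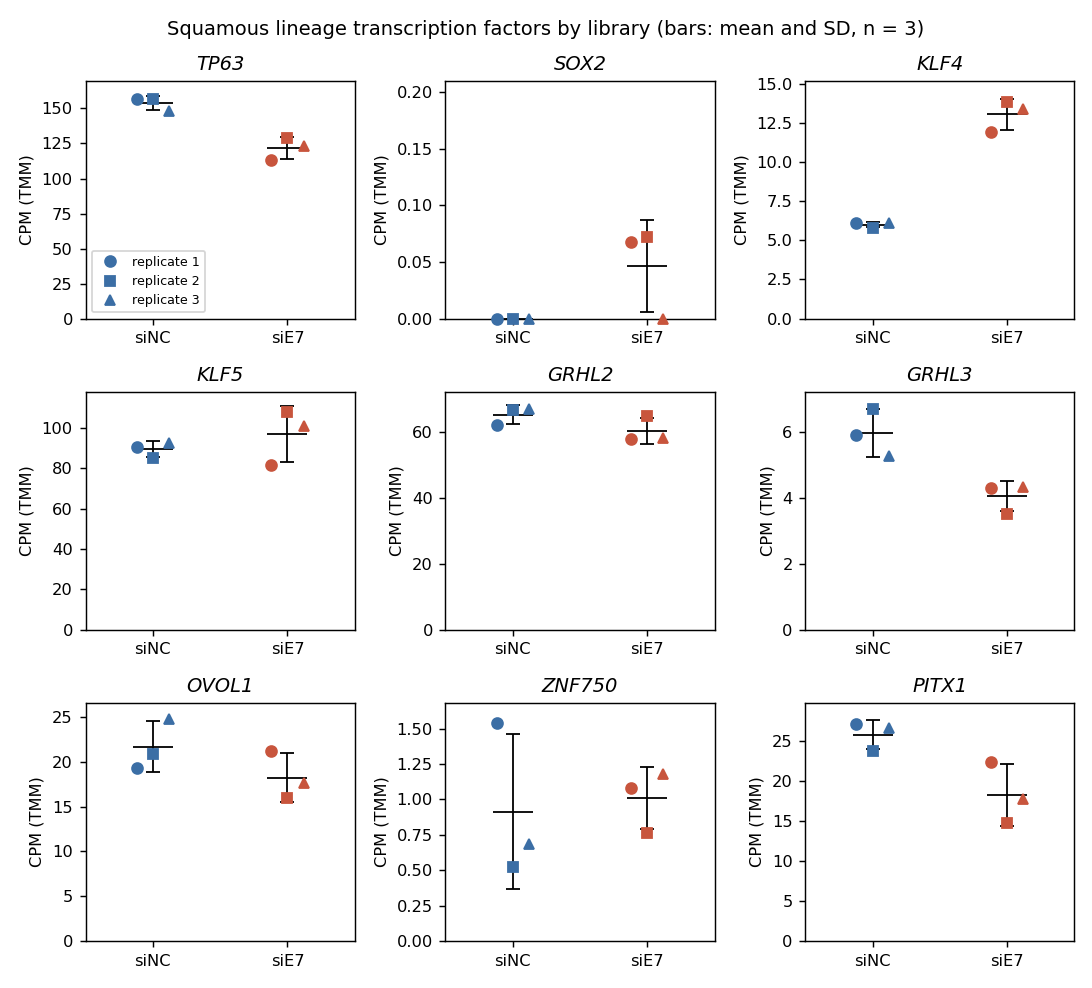
TMM-scaled level (CPM, vertical axis from 0) of each of the 9 genes in the 3 siNC and the 3 siE7 libraries, 1 symbol per library, with the mean and SD (n = 3) in black. KLF4 was higher in each siE7 library (11.9 to 13.8 CPM) than in each siNC library (5.80 to 6.13 CPM), and TP63, GRHL3 and PITX1 were lower.

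Promoter sequences of RefSeq (GRCh38.p14, 250 bases before to 50 bases after a start) were at hand for 6 of the 9 members, TP63, SOX2, KLF4, KLF5, GRHL3 and PITX1. They were searched on both strands for CACCC and GGGCGG, short sequences of the kind that KLF and SP factors bind, and for the longer CCNCACCC, which contains CACCC. Of all 35116 promoters in the table, 59.9% held CACCC, 18.3% held CCNCACCC and 45.0% held GGGCGG. The TP63 promoter at the 5′ end of the gene held none of them, and the internal start of the truncated form is not covered. The KLF4 promoter held 4 GGGCGG and no CACCC, and the PITX1 promoter held 4 of each. The first GRHL3 promoter held 3 CACCC and 1 GGGCGG. For the called members that held a match, 1 stretch each is shown to let the letters be seen, with the match in capitals and read 5′ to 3′ on the strand of the gene, GGGCGG for KLF4 (chr9:107489828-107489857, minus strand) and CCNCACCC for GRHL3 (chr1:24319232-24319261, plus strand) and PITX1 (chr5:135034270-135034299, minus strand). A match is a description of letters and not of binding.
KLF4: gaagaaagggagGGGCGGggcatgggagaa
GRHL3: tcatctccaccCCCCACCCcctcaccaagg
PITX1: acccaggcccaCCCCACCCagcacccctgg

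KLF4 (ENSG00000136826.15) is a gene of the minus strand of chromosome 9 (GRCh38, 107484852 to 107490482). Its level was 6.08, 5.80 and 6.13 CPM in siNC replicates 1 to 3 and 11.9, 13.8 and 13.4 CPM in siE7 replicates 1 to 3, from 145 to 411 reads per library. Every siE7 library thus lay about a doubling above every siNC library. The mean with siNC was 6.01 ± 0.176 CPM (SD, n = 3), and siE7 gave a 2.17-fold increase or 1.12 on the log2 scale with a standard error of 0.158 (95% interval 0.77 to 1.46, adjusted p = 0.00033 by the edgeR QL test). The call was kept in all 14 alternative settings (log2 fold change 1.06 to 1.29, adjusted p 3.5e-09 to 0.0048 by the edgeR, DESeq2 and limma-voom fits), although glmTreat, which tests for a change larger than 1 on the log2 scale, did not call it. The annotation places a long noncoding gene of the opposite strand over 357 of its exonic bases, so reads of that gene would count towards KLF4 if the strand was not used in counting.

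KLF5 (ENSG00000102554.14), on chromosome 13 from 73054976 to 73077541 on the plus strand, was much more abundant. It reached 90.4, 85.1 and 92.7 CPM with siNC and 81.4, 108 and 101 CPM with siE7. The siE7 libraries spread to either side of the siNC libraries, replicate 1 below and replicates 2 and 3 above. KLF5 did not pass the test, with a log2 fold change of 0.12 (95% interval -0.16 to 0.39, adjusted p = 0.51 by the edgeR QL test, 0.018 to 0.90 over its alternatives). Without siE7 replicate 1 the log2 fold change was 0.16 and passed the test (adjusted p = 0.018), the lower end of that range. The ratio of KLF4 to KLF5 CPM within a library, which does not depend on the scaling of the libraries, was 6.72%, 6.82% and 6.62% with siNC. With siE7 it was 14.6%, 12.8% and 13.3%, above every siNC library. The log2 ratio was 1.01 higher with siE7 (0.96 without siE7 replicate 1). An exact permutation test (two-sided) returned p = 0.1, adjusted p = 0.1 over the 2 ratios tested, the smallest that 3 libraries against 3 allow.

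TP63 (ENSG00000073282.14) spans chromosome 3 from 189631389 to 189897276 on the plus strand, and its 14 annotated transcripts include forms with and without the N-terminal transactivation domain, which counts per gene do not tell apart. Its level was 157, 157 and 148 CPM with siNC and 113, 129 and 123 CPM with siE7. The groups did not overlap, and the gap between them (129 against 148 CPM) was larger than the spread within either group. The mean was 154 ± 4.96 CPM with siNC and 122 ± 8.20 CPM with siE7 (SD, n = 3 each). TP63 fell to 79.3% of the siNC level, a log2 fold change of -0.33 with a standard error of 0.107 (95% interval -0.57 to -0.10, adjusted p = 0.031 by the edgeR QL test). The call was near the threshold. It held in 8 of 14 alternative settings, was lost without composition scaling (log2 fold change -0.16, adjusted p = 0.22, against 2.5e-06 to 0.22 over all alternatives), and was lost without any 1 of the siNC replicates (-0.37 to -0.33) or without siE7 replicate 3 (-0.34).

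SOX2 (ENSG00000181449.4), a gene without introns on chromosome 3 from 181711925 to 181714436, was practically unread. It had 0 counts in each siNC library and 2, 2 and 0 counts in the siE7 libraries. A count of 0 allows a level of up to 0.121 CPM in siNC replicate 1 and 0.114 CPM in siNC replicate 3 (counting error only), and both groups stayed at or under this floor of 3 counts, so no fold is given. SOX2 lies within SOX2-OT, a long noncoding RNA gene of the same strand whose exons do not cover it. SOX2-OT had 0 counts in all siNC libraries and 7, 2 and 10 counts with siE7. Against a floor of 3 counts over the siNC group, the observed siE7 level was 5.48-fold higher, with the counting error of the siE7 reads left out. It rests on very few reads, for a gene that the filter on low counts removed. When no filter was used, the adjusted p of SOX2-OT was 0.0091 by the edgeR QL test. Among other SOX genes of epithelia, SOX15 and SOX9 were abundant and fell, from 270 ± 14.4 to 78.6 ± 19.3 CPM and from 33.4 ± 3.48 to 12.5 ± 1.02 CPM (SD, n = 3 each). Their log2 fold changes were -1.78 (SOX15, standard error 0.160, adjusted p = 1.6e-05) and -1.42 (SOX9, standard error 0.142, adjusted p = 3.6e-05), both by the edgeR QL test and both called in all 14 alternatives.

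The grainyhead members were unequal in level and in change. GRHL2 (ENSG00000083307.12; chromosome 8 from 101492439 to 101669726, plus strand) had 62.1, 66.9 and 67.1 CPM with siNC and 58.0, 65.0 and 58.4 CPM with siE7. The groups overlapped, and the log2 fold change of -0.11 (95% interval -0.35 to 0.13, adjusted p = 0.46 by the edgeR QL test) turned to 0.06 without composition scaling (adjusted p = 0.67, against 0.066 to 0.67 over its alternatives). GRHL3 (ENSG00000158055.16; chromosome 1 from 24199558 to 24364482, plus strand) had 5.91, 6.69 and 5.26 CPM with siNC and 4.28, 3.51 and 4.32 CPM with siE7, from 97 to 167 reads per library. All siE7 values were under all siNC values. GRHL3 fell to 67.9% of the siNC level, a log2 fold change of -0.56 with a standard error of 0.193 (95% interval -0.98 to -0.14, adjusted p = 0.044 by the edgeR QL test). This call was the weakest of the 4 and held in 4 of 14 alternatives (adjusted p 0.0025 to 0.17 by the same fits as above). It was lost without any 1 of the siNC replicates and without siE7 replicate 2 or 3 (log2 fold change -0.65 to -0.47), and -0.39 was left without composition scaling.

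The ratio of GRHL3 to GRHL2 CPM was 9.52%, 9.99% and 7.84% with siNC and 7.39%, 5.40% and 7.39% with siE7, all siE7 values being the lower. The log2 ratio differed by -0.45 (-0.52 without siE7 replicate 1), with an exact two-sided permutation p of 0.1, again the smallest possible. GRHL1, the third grainyhead gene, did not pass the test, with a log2 fold change of -0.14 (95% interval -0.49 to 0.21), or 0.03 without composition scaling. STPG1, which lies partly within GRHL3 on the opposite strand without sharing exonic bases, did not pass either, with a log2 fold change of 0.27.

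OVOL1 (ENSG00000172818.10; chromosome 11 from 65787063 to 65797214, plus strand) had 19.3, 20.9 and 24.8 CPM with siNC and 21.2, 15.9 and 17.6 CPM with siE7. With siE7, replicate 1 lay inside the siNC range and replicates 2 and 3 lay below it. OVOL1 did not pass the test, with a log2 fold change of -0.25 (95% interval -0.60 to 0.10, adjusted p = 0.24 by the edgeR QL test, 0.00068 to 0.65 over its alternatives). Without siE7 replicate 1 the log2 fold change was -0.43 and passed, with an adjusted p at the lower end of that range. An annotated long noncoding gene of the opposite strand covers 1039 of its exonic bases, and 1 read was counted on that gene in all 6 libraries. Whether the strand was used in counting is not known, so this count does not bound that gene's reads within OVOL1. OVOL2, its paralogue, stood at 11.1 ± 0.743 CPM with siNC and 10.7 ± 2.14 CPM with siE7 (SD, n = 3 each) and did not pass.

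ZNF750 (ENSG00000141579.7; chromosome 17 from 82829434 to 82840022, minus strand) was the lowest member with reads in every library. It had 38, 13 and 18 counts with siNC and 32, 21 and 36 with siE7, that is 1.54, 0.520 and 0.682 CPM against 1.08, 0.761 and 1.18 CPM. The siNC libraries alone spread widely, and the siE7 values fell inside their range. A change was not detectable at this depth, since the 95% interval of the log2 fold change ran from -0.80 to 1.09 (adjusted p = 0.82 by the edgeR QL test). ZNF750 lies inside TBCD, a tubulin folding cofactor gene on the opposite strand, and shares 222 exonic bases with it. TBCD had 1386 to 2508 reads per library and fell, with a log2 fold change of -0.78 and a standard error of 0.134 (adjusted p = 0.0012, edgeR QL test), so reads of TBCD could make up part of the ZNF750 counts if the strand was not used, and that share was not tested.

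PITX1 (ENSG00000069011.16; chromosome 5 from 135027734 to 135034813, minus strand) had 27.1, 23.7 and 26.6 CPM with siNC and 22.4, 14.7 and 17.7 CPM with siE7. The groups did not overlap, with siE7 replicate 1 nearest to the siNC libraries. The mean went from 25.8 ± 1.79 to 18.3 ± 3.86 CPM (SD, n = 3 each). PITX1 fell to 70.9% of the siNC level, a log2 fold change of -0.50 with a standard error of 0.165 (adjusted p = 0.037 by the edgeR QL test). It was called in 8 of 14 alternatives (adjusted p 9.3e-08 to 0.14). The log2 fold change was -0.73 without siE7 replicate 1. The call was lost without composition scaling (-0.34) and without any 1 of the siNC replicates or siE7 replicate 2 or 3 (-0.56 to -0.37).

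**Figure D2:**
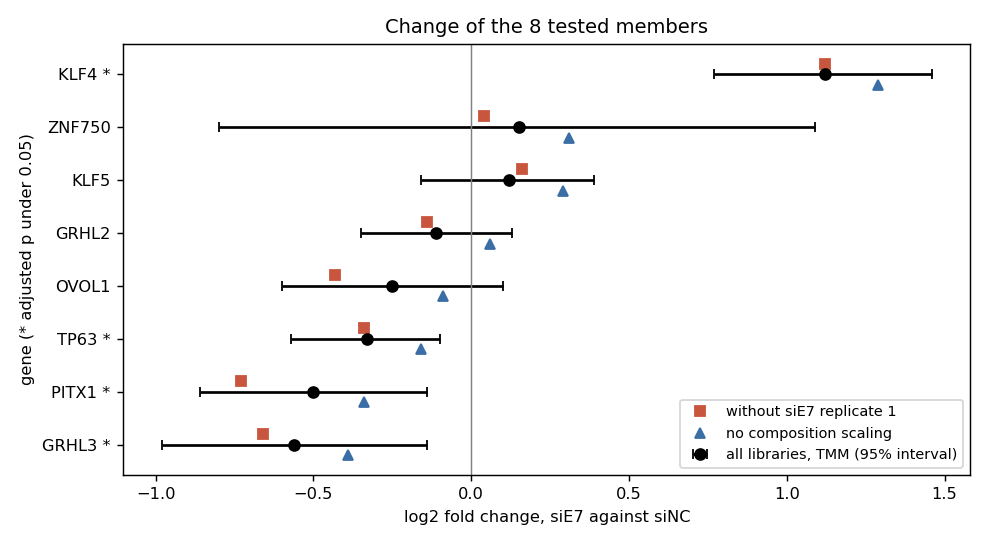
Log2 fold change of siE7 against siNC (horizontal axis) for the 8 tested members, with its 95% interval from the fit of all 6 libraries (black), the value without siE7 replicate 1 (squares) and the value without composition scaling (triangles). KLF4 at 1.12 stands clear of 0 in all 3 fits, while GRHL2 crosses 0 without composition scaling.

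Levels of different genes were compared per kilobase of exon (RPKM, reads per kilobase of the union of exons, from the same CPM). With siNC the order was KLF5 (24.3 ± 1.06), TP63 (20.6 ± 0.663), GRHL2 (10.8 ± 0.466), PITX1 (7.49 ± 0.521), OVOL1 (5.71 ± 0.746), KLF4 (1.64 ± 0.0480), GRHL3 (1.40 ± 0.167) and ZNF750 (0.289 ± 0.173), all as mean RPKM ± SD (n = 3), with SOX2 at 0. The ranges of neighbours in this order did not overlap. With siE7 the order was the same, and the ranges of PITX1 and OVOL1 overlapped. KLF4 moved within it, its distance below OVOL1 going from 3.48-fold to 1.35-fold in mean RPKM and its distance above GRHL3 from 1.17-fold to 3.76-fold. The order depends on the length used: with the longest annotated transcript instead of the union of exons, the siNC means of KLF5 and TP63 changed places, as did those of KLF4 and GRHL3.

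**Figure D3:**
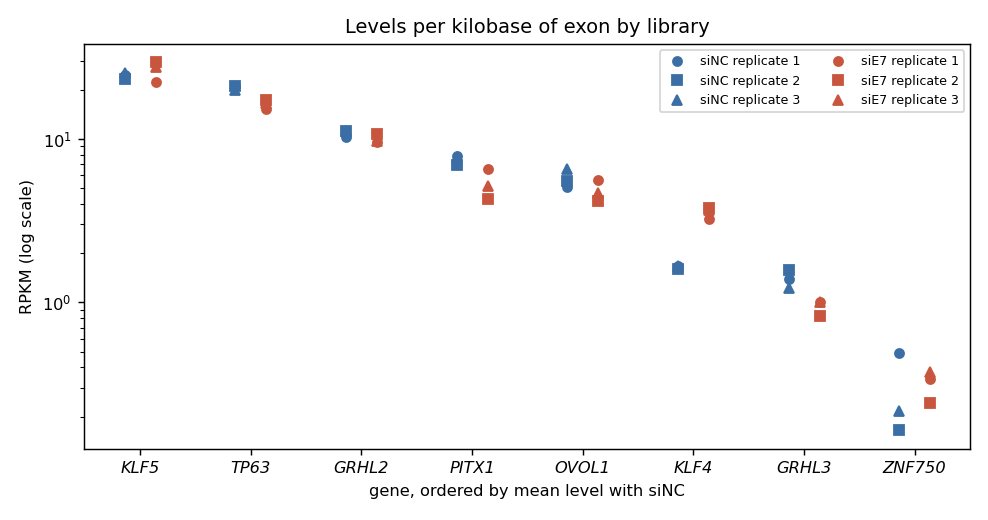
Level per kilobase of exon (RPKM, log scale) of the 8 members with reads in every library, ordered by their mean with siNC, 1 symbol per library. KLF5 and TP63 lie above 15 RPKM in all libraries, and KLF4 is the gene whose groups are farthest apart, 1.59 to 1.68 RPKM with siNC against 3.24 to 3.77 RPKM with siE7.

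The genes whose profile over the 6 libraries was nearest to that of KLF4 were PTHLH, TLCD2 and MESD. Each profile of log2 CPM was centred on its own mean, and the root mean square distance to KLF4 was 0.0292, 0.0386 and 0.0423. Their log2 fold changes were 1.07, 1.12 and 1.10. PTHLH encodes parathyroid hormone-related protein. Nearest to TP63 were GSPT1, TXNDC12 and TEX2, at distances of 0.0325, 0.0418 and 0.0443 and log2 fold changes of -0.30, -0.30 and -0.33. TXNDC12 did not pass the test (adjusted p = 0.10 by the edgeR QL test). GSPT1 and TEX2 passed near the threshold and were called in 4 and 6 of 14 alternatives.

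Other transcription factors of squamous and simple epithelia changed in both directions. Of 56 listed genes 49 were tested, and 12 rose, 13 fell and 24 did not pass (51.0% called against 34.0% of all tested genes), with a median log2 fold change of 0.00. Without siE7 replicate 1, 17 rose and 17 fell, with no share of all tested genes given for that fit. ID2, an inhibitor of basic helix-loop-helix factors, rose from 0.774 ± 0.146 to 4.89 ± 0.790 CPM, and CEBPD, which acts in keratinocyte differentiation, rose by a log2 fold change of 1.32. TFAP2A, an AP-2 factor of the epidermis, fell from 139 ± 6.11 to 54.5 ± 2.97 CPM (SD, n = 3 each), a log2 fold change of -1.35. VDR, the vitamin D receptor, fell with a log2 fold change of -1.47. TP73, a relative of TP63, had a log2 fold change of 0.02 (95% interval -0.50 to 0.55) and did not pass. The zinc finger genes KLF3 and KLF6 did not pass either, at 0.30 (higher in each siE7 library, adjusted p = 0.10 by the edgeR QL test, with alternatives from 0.018 to 0.28) and -0.27.

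Cofactors and regulators of the squamous factors were called about as often as genes in general, but more of them fell than rose. All 36 listed genes were tested, 2 rose, 10 fell and 24 did not pass (33.3% called against 34.0% of all tested genes), with a median log2 fold change of -0.15. Of the list 27.8% were lower and 5.56% higher, against 16.0% and 18.0% of all tested genes. The counts depended on the fit. When siE7 replicate 1 was left out 6 rose and 21 fell, but no share of all tested genes is given for that fit. Without composition scaling 4 rose. USP9X (a deubiquitinase), DICER1 (the miRNA-processing nuclease) and KMT2D (a histone methyltransferase) fell, with log2 fold changes of -1.27, -1.02 and -0.76. KDM6B, a demethylase of histone H3 that activates differentiation genes, rose by 1.02.

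Basal genes listed as targets of p63 fell more often than they rose. All 42 were tested, 4 rose, 24 fell and 14 did not pass, so 66.7% were called and 57.1% were lower, against 34.0% and 16.0% of all tested genes. The median log2 fold change was -0.55, or -0.40 without composition scaling, which moved the median of all tested genes from 0.08 to 0.25. LAMA3, a laminin chain of the basement membrane, fell from 2888 ± 166 to 777 ± 60.0 CPM and HAS3, a hyaluronan synthase, from 14.5 ± 0.397 to 2.30 ± 0.172 CPM (SD, n = 3 each). Their log2 fold changes were -1.89 and -2.65, for genes named because their p was among the smallest of those that fell. PTHLH, PERP (a desmosomal protein) and FGFR3 (a growth factor receptor) rose by 1.07, 1.17 and 0.67. The FGFR3 call was lost without siNC replicate 2 (0.61) or siNC replicate 3 (0.63), and the log2 fold change was 0.42, still called, without siE7 replicate 1. The 4 genes that rose became 2 without siNC replicate 2 or siNC replicate 3, 7 without siE7 replicate 1 and 9 without composition scaling.

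Differentiation genes of suprabasal keratinocytes, among which are targets of KLF4, GRHL3, OVOL1 and ZNF750, also had more members that fell than rose. Of 73 listed genes 66 were in the table and 44 were tested, 6 rose, 21 fell and 17 did not pass, so 61.4% were called and 47.7% were lower, against 34.0% and 16.0% of all tested genes, with a median log2 fold change of -0.49 (-0.32 without composition scaling). PPL, the cornified envelope protein periplakin, fell from 249 ± 5.56 to 80.9 ± 13.2 CPM (SD, n = 3 each). EMP1 (an epithelial membrane protein) and SPRR1B (a small proline-rich envelope protein) fell, with log2 fold changes of -1.47 and -1.97. SERPINB3 and SERPINB13, protease inhibitors of squamous epithelium, rose from 0.986 ± 0.0822 to 3.11 ± 0.681 CPM and from 1.46 ± 0.317 to 4.45 ± 1.21 CPM (SD, n = 3 each). SERPINB4 had 0, 8 and 0 counts with siNC and 20, 37 and 32 with siE7, so its siNC level rested on replicate 2 alone. It rose with a log2 fold change of 3.22, which was 2.66 or 2.62 without siNC replicate 1 or 3. Without siNC replicate 2 the fit gave 7.83 against siNC libraries all at 0, which is no bound on the change. SERPINB3 and SERPINB4 are near-identical neighbours between which the authors' counting could have split reads. The 6 genes that rose became 3 without siNC replicate 1, without siNC replicate 3 or without siE7 replicate 3.

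Epithelial junction and trafficking genes that GRHL2 and OVOL factors are known to maintain had more members that fell than rose. GRHL2 and OVOL1 themselves did not pass the test with all libraries, while OVOL1 passed as lower without siE7 replicate 1 (log2 fold change -0.43). Of 34 tested genes 1 rose, 18 fell and 15 did not pass, so 55.9% were called and 52.9% were lower, against 34.0% and 16.0% of all tested genes, with a median log2 fold change of -0.51 (-0.35 without composition scaling). ST14 (the protease matriptase), CGN (cingulin of tight junctions) and CDH1 (E-cadherin) fell, with log2 fold changes of -1.51, -1.39 and -1.03. CDH1 went from 171 ± 4.88 to 83.6 ± 12.8 CPM (SD, n = 3 each). TMC4, a membrane channel-like protein, was the gene that rose, by 1.55. Of this list 13 genes fell without composition scaling and without siNC replicate 2 or siNC replicate 3, and 22 fell without siE7 replicate 1. The count of genes that rose was 2 with DESeq2, without composition scaling, without the filter, and when siE7 replicate 3 or any 1 siNC replicate was left out.

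Mesenchymal genes that the same factors are known to repress changed in both directions, and more of them fell than rose. Of 15 tested genes 4 rose, 10 fell and 1 did not pass (93.3% called against 34.0% of all tested genes). Of the list 66.7% were lower and 26.7% higher, against 16.0% and 18.0% of all tested genes. The median log2 fold change was -0.94 (-0.77 without composition scaling). AXL (a receptor tyrosine kinase), SPARC (a matrix protein) and TGFBR2 (a TGF-beta receptor) fell, with log2 fold changes of -2.14, -1.46 and -1.17, while the transcription factors SNAI2 and TWIST1 rose by 1.33 and 1.20 and LOX, a collagen cross-linking enzyme, by 1.93. With siE7, SNAI2 reached 307 ± 37.1 CPM against 122 ± 7.27 CPM with siNC (SD, n = 3 each). TFAP2A, PTHLH and SERPINB3 share 16.8%, 10.4% and 36.3% of their exonic bases with another annotated gene, and the other list genes named as called share 7.06% or less.

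**Figure D4:**
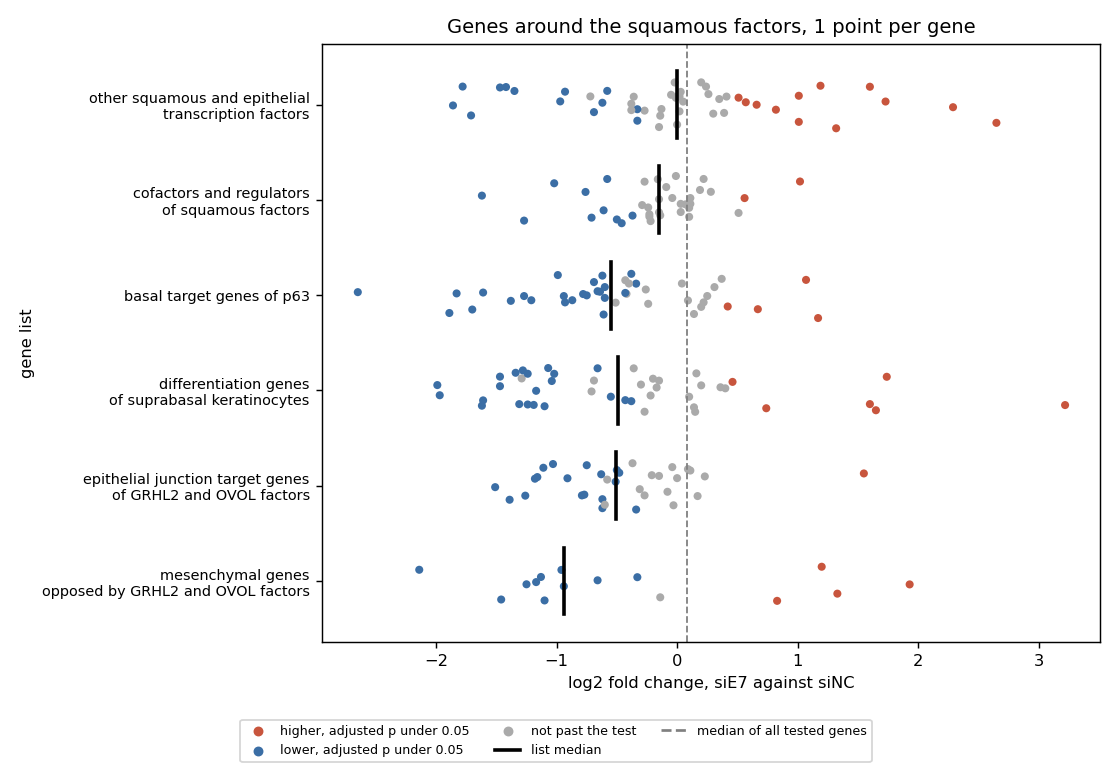
Log2 fold change of siE7 against siNC (horizontal axis) of each tested gene in the 6 lists, 1 point per gene, red for higher and blue for lower with an adjusted p under 0.05 and grey for genes that did not pass. The list medians (black bars) run from 0.00 for the other transcription factors to -0.94 for the mesenchymal genes, beside 0.08 for all tested genes (dashed line).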

How the data were processed

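RNA of 6 SCC-9 libraries (3 siNC, 3 siE7) was sequenced as directional, paired-end mRNA libraries. The authors deposited read counts per gene, whole numbers without normalization. The submitters' processing notes name HISAT2, DESeq2 and GRCh38, while the counting tool, the annotation release and the use of the strand are not given in the sources used here. Groups were taken from the sample titles. Genes were filtered by filterByExpr, which kept 14661, scaled by TMM and compared by edgeR 4.0.16 (R 4.3.3, quasi-likelihood F-test, robust, Benjamini-Hochberg over all tested genes, threshold 0.05). Standard errors and 95% intervals come from that fit. The test was tested on simulated data, where edgeR recovered 197 of 200 changed genes and called 10 unchanged genes of 14656 tested. The changed genes there had a median log2 fold change of 1.47 in size. Recovery of smaller changes, such as those of TP63, GRHL3 and PITX1, was not tested. The simulated libraries included no outlying library and no shift in composition, and their changes were balanced in direction. The number of unchanged genes called there is therefore not an error rate for these data. Exact permutation tests of 3 against 3 libraries cannot go below 0.1.

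Alternatives were RLE and upper-quartile factors, library totals alone (no composition scaling), all genes without a filter, at least 10 counts in every library, DESeq2 1.42.0, limma-voom (limma 3.58.1), a replicate block, each library left out, and glmTreat for changes above 1 (log2). Positions, exons and overlaps come from GENCODE v44 on GRCh38, to which 25283 of 25349 identifiers were matched without their version. Floors of 3 counts cover counting error only. Named were the members, their paralogues, overlapping genes, the nearest profiles of the member with the smallest p in each direction, and in each list up to 3 genes per direction with the smallest p; some genes that this rule picks are not reported here. The members and lists were chosen with earlier results of these data known. The lists were written by hand and share BNC1, TRIM29 and PRSS8.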

Additional observations from a re-analysis of the deposited data

How the results depend on the processing

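KLF4 kept its direction and its call in all 14 alternatives with a test against 0. The other calls lay near the threshold. glmTreat, which tests for changes above 1 on the log2 scale, called 0 members in either direction. The fit without composition scaling called 0 members lower, where it called 1632 of all 14661 tested genes lower. No share of all tested genes is given for glmTreat, the replicate block or the fits that left out 1 library. Their counts of members thus have no background beside them. Leaving out 1 library gave 1 to 2 members higher and 0 to 4 lower, with 0 lower without any 1 of the siNC replicates or siE7 replicate 3, KLF5 being the second higher and OVOL1 the fourth lower member, both without siE7 replicate 1. Log2 fold changes over the fits that left out 1 library lay between -0.38 and -0.33 for TP63, -0.66 and -0.47 for GRHL3, -0.73 and -0.37 for PITX1, -0.43 and -0.15 for OVOL1, 0.03 and 0.16 for KLF5, and -0.14 and 0.73 for ZNF750, whose sign turned without siNC replicate 2 or 3. Without composition scaling TP63 was at -0.16, GRHL3 at -0.39, PITX1 at -0.34 and GRHL2 at 0.06, and the median of all tested genes rose by 0.17. GRHL3 also missed the threshold with upper-quartile factors (-0.53), no filter (-0.57) and at least 10 counts in every library (-0.53). The share of all calls that were higher was 52.9% with TMM, 47.5% with RLE and 71.2% without composition scaling. In each of these cases the cause was not tested.

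No pairing of the libraries by the replicate numbers in the titles was seen. Deviations from the group means of same-numbered libraries correlated at -0.032, -0.014 and -0.042, and no library correlated best with its own number. With 3 libraries per group and siE7 replicate 1 standing apart, a pairing could go unseen. With a replicate block 1 member was lower, PITX1, while TP63 (-0.34) and GRHL3 (-0.56) missed the threshold, and 1 was higher. Among paralogues that did not pass, the sign turned for TP73 (-0.02 with RLE, -0.03 with DESeq2, -0.17 to 0.22 with a library left out), for GRHL1 (0.03 without composition scaling) and for OVOL2 (0.11 without composition scaling, -0.26 to 0.09 with a library left out). With the longest transcript as length, 4 members changed rank. Depth limited SOX2 and ZNF750, with at most 2 and 38 counts in a library.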
